A study of Mus musculus with 6 samples.

Results

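The imprinted growth network genes described here are H19, Dlk1, Meg3, Rian, Peg3, Plagl1, Cdkn1c, Grb10 and Mest, taken by symbol from a deposited table of gene counts and FPKM values, and all 9 were found among its 32771 genes. The 6 RNA libraries are from the aorta of wild-type (WT) mice, all of which had received AngII/BAPN, the pressor peptide angiotensin II together with beta-aminopropionitrile, which blocks collagen and elastin cross-linking, a combination used to bring on aortic dissection in mice. In 3 libraries (numbered 5, 7 and 39) the treatment was AngII/BAPN+Ab, where the antibody is directed against CTHRC1, a secreted protein of activated fibroblasts, and in 3 (numbered 14, 18 and 20) it was AngII/BAPN+IgG, with an isotype IgG as the control. Age, sex, strain, dose and duration are not given in the sources used here, and no library comes from a mouse without the infusion. Whether the libraries are separate animals is not stated in the labels, and p-values therefore refer to the spread among these libraries, which may be technical.

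Imprinted genes are transcribed from the maternal or the paternal chromosome alone, according to DNA methylation set in the germ line, and many of them control fetal growth. In mice the zinc finger factor PLAGL1 regulates a set of other imprinted genes, among them H19, Cdkn1c and Dlk1, and most members of this set are strongly expressed in the embryo and lowered after birth. H19, Meg3 and Rian are noncoding RNAs and, with Cdkn1c, come from the maternal chromosome, while Dlk1, Peg3, Plagl1 and Mest come from the paternal one, and Grb10 is maternal in most tissues.

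Total counts per library ran from 64556253 to 67859566. Of 2244 genes with at least 5 CPM (counts relative to library size, TMM-scaled) and a gap of over 0.5 log2 units between antibody libraries 5 and 7, antibody library 39 lay inside that gap in 93.0%. The highest such share among sets of 3 libraries without library 39 was 73.2%, so library 39 was not shown to be independent of libraries 5 and 7. In IgG library 14, 319 genes exceeded all 5 other libraries by 4-fold or more after 1 CPM was added, and in each other library there were 1 to 3 of these. Smooth muscle genes that define aorta were present in each library, with Acta2 from 1002.8 to 3766.0 CPM and Myh11 from 482.8 to 1603.8 CPM. In bulk tissue, fewer cells of a type and less RNA per cell cannot be told apart.

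H19 was the most abundant of the 9 genes per unit length and Dlk1 the least. On the authors' FPKM scale, which corrects for gene length, the mean over the 6 libraries was 60.0 ± 38.6 for H19 (SD, n = 6), 19.9 ± 4.14 for Grb10, 10.7 ± 2.47 for Cdkn1c, 8.72 ± 1.54 for Meg3, 7.36 ± 4.33 for Mest, 5.11 ± 1.46 for Rian, 2.62 ± 1.66 for Plagl1, 2.60 ± 0.54 for Peg3 and 0.43 ± 0.25 for Dlk1. Neighbours in this order overlapped over the libraries in every case except the last, where Peg3 exceeded Dlk1 in all 6. Cdkn1c exceeded Meg3 in 3 of 6 libraries, and Plagl1 exceeded Peg3 in 3 of 6, so neither pair had a fixed order.

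None of the 9 genes passed an adjusted p of 0.05 between antibody and IgG in edgeR's quasi-likelihood test, in which 0.317% of the 19241 genes tested did (0.104% higher and 0.213% lower). At an unadjusted p under 0.05 there were 4 members (Rian, Cdkn1c, Meg3 and Dlk1), where 17.1% of all genes were at that level. DESeq2, which called 8.84% of genes, called 3 members (Rian, Dlk1 and Cdkn1c), and limma-voom called 0. In CPM the groups did not overlap for 5 of the 9 genes, against 22.0% of all genes in either direction. There were 4 genes that were higher after the antibody (Dlk1, Meg3, Rian and Grb10), where 11.0% of all genes were higher without overlap, and 1 that was lower (Cdkn1c), again against 11.0%. In the authors' FPKM, Grb10 overlapped between the groups and the other 4 did not. The median log2 fold change of the 9 genes was 0.40, against -0.02 over all genes tested. The members were chosen with earlier results of these libraries known, so these counts describe them and are not a test of the set.

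**Figure D1:**
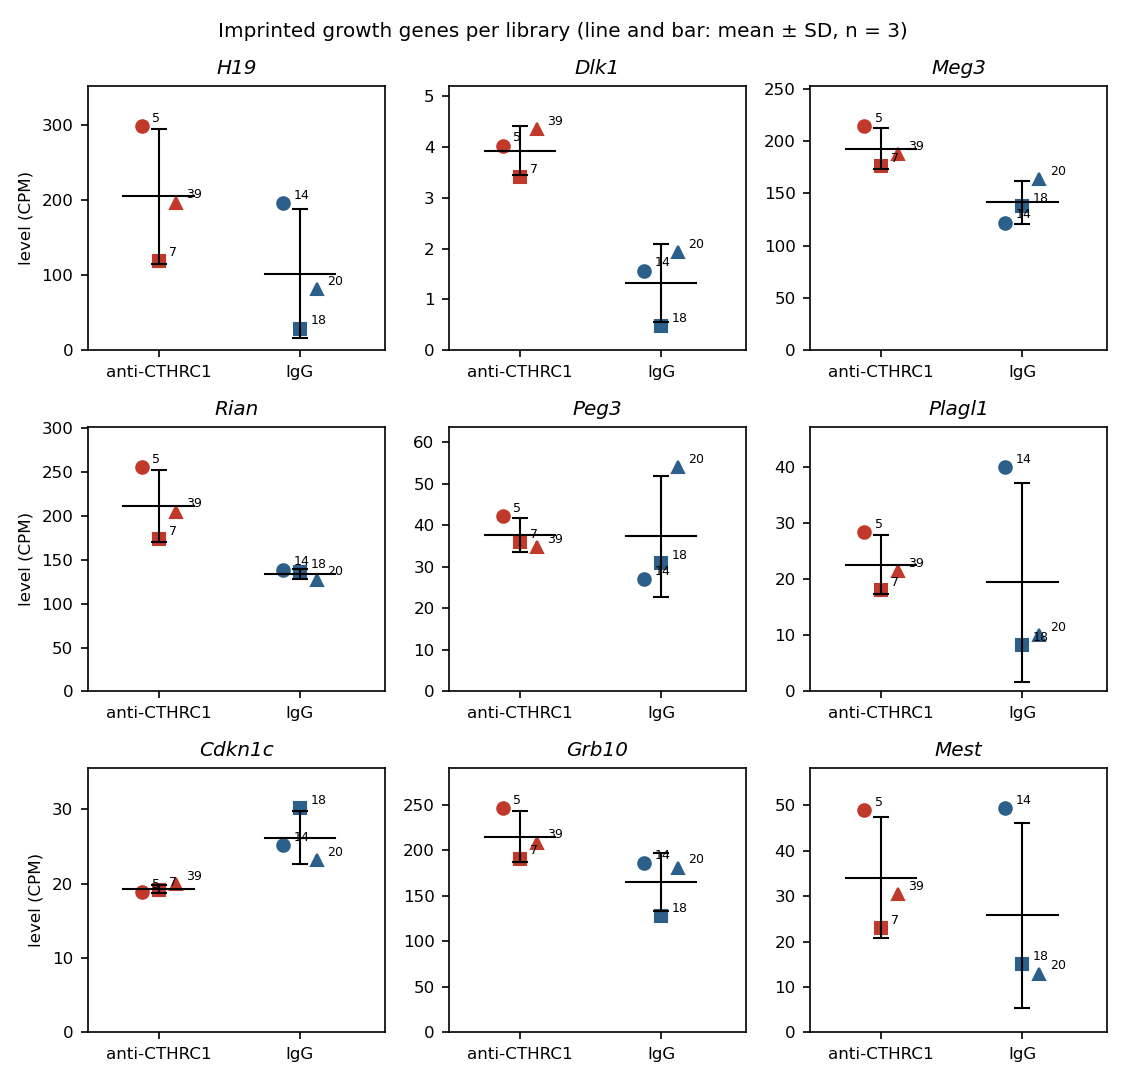
Level of each imprinted gene in each library, in TMM-scaled CPM on a linear axis from 0, with points numbered by library and a line and bar for the mean ± SD of 3 libraries. Dlk1, Meg3, Rian and Grb10 lie higher in all 3 antibody libraries than in any IgG library, Cdkn1c lies lower, and H19, Peg3, Plagl1 and Mest overlap.

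Dlk1, Meg3 and Rian lie in the Dlk1-Dio3 domain of chromosome 12, and all of them were higher in each antibody library than in any IgG library. Dlk1 (chromosome 12, 109452823 to 109463336, plus strand, GRCm38) encodes a transmembrane EGF-repeat protein, also known as preadipocyte factor, that is shed from precursor cells and restrains adipocyte differentiation. It was at 4.02, 3.40 and 4.34 CPM in antibody libraries 5, 7 and 39 and at 1.57, 0.47 and 1.93 CPM in IgG libraries 14, 18 and 20. The antibody libraries lay close together and IgG library 18 was far below the other two IgG libraries. The means were 3.92 ± 0.48 and 1.32 ± 0.76 CPM (SD, n = 3 each), and edgeR gave 1.57 as the log2 fold change (SE 0.52, adjusted p = 0.217). Without IgG library 18 it was 1.17 (adjusted p = 0.324, edgeR), without IgG library 14 it was 1.70 (adjusted p = 0.206, edgeR), and without antibody library 39 it was 1.49 (adjusted p = 0.542, edgeR). Dlk1 passed in DESeq2 on all 6 libraries (adjusted p = 0.0364) and without each IgG library in turn (adjusted p from 0.00295 to 0.0379). It did not pass in DESeq2 when 1 antibody library was left out, whichever it was (adjusted p from 0.139 to 0.270). Its counts were 266, 216 and 289 in the antibody libraries and 119, 32 and 116 in the IgG libraries, so sampling error is larger for Dlk1 than for the other members.

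Meg3 (109541001 to 109571721, plus strand) is a long noncoding RNA from the maternal copy of the same domain. It was at 213.9, 175.9 and 187.8 CPM in antibody libraries 5, 7 and 39 and at 122.0, 138.0 and 163.6 CPM in IgG libraries 14, 18 and 20. The nearest libraries, antibody library 7 and IgG library 20, differed by little. Meg3 differed by 0.45 ± 0.15 log2 units (SE, edgeR adjusted p = 0.211), with a range from 0.35 without IgG library 14 to 0.61 without IgG library 20.

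Rian (109603808 to 109661716, plus strand) is the noncoding host of a cluster of box C/D small nucleolar RNAs. Among the 9 genes it had the smallest p. It was at 255.3, 173.3 and 204.8 CPM in antibody libraries 5, 7 and 39, and at 138.9, 135.6 and 127.4 CPM in IgG libraries 14, 18 and 20. The IgG libraries lay within 1.09-fold of each other, whereas the antibody libraries spread over 1.47-fold. Rian differed by 0.66 ± 0.16 log2 units (SE, edgeR adjusted p = 0.147), and in DESeq2 it passed on all 6 libraries (adjusted p = 0.00371) and without each library in turn (adjusted p from 2.1e-05 to 0.0408). In edgeR it passed under none of the alternatives, including without antibody library 39 (0.68, adjusted p = 0.512) and without IgG library 14 (0.68, adjusted p = 0.136).

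The start regions of Dlk1, Meg3 and Rian are shown because these genes lie in the same domain and their levels were higher in the same libraries. They are RefSeq sequences on GRCm38.p6, from 250 bases before to 50 bases after an annotated start, 5′ to 3′ on the plus strand. Promoter entries were matched for 7 of the 9 members, and none was used for H19 and Cdkn1c. Meg3 has another entry, chr12:109545148-109545447, which holds 1 CpG and none of the motifs searched and is not printed. Capitals mark matches on either strand to TGCCGC, the core bound by the imprint-maintaining factor ZFP57, to GGGGCCCC, the GC-rich type of site that PLAGL1 binds, or to TATAAA.
Dlk1, chr12:109452573-109452872: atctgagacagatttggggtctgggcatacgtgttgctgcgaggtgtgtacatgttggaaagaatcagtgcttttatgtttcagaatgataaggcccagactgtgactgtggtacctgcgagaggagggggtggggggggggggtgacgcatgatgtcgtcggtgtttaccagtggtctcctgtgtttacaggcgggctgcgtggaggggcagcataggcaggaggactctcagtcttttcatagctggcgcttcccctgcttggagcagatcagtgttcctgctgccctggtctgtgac
Meg3, chr12:109540746-109541045: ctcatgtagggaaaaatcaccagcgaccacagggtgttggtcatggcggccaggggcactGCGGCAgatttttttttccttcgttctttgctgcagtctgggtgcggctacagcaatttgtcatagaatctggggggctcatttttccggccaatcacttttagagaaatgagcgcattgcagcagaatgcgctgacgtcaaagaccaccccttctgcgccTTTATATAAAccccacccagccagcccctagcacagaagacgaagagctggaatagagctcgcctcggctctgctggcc
Rian, chr12:109603695-109603994: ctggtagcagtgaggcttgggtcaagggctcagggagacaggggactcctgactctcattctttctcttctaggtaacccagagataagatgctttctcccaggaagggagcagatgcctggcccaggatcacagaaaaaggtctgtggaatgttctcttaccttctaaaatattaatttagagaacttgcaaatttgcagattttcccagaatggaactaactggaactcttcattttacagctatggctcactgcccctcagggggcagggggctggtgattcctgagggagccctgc
Of these, the Meg3 window held the ZFP57 core once, on the reverse strand at position -190 from the start, and a pair of overlapping TATAAA matches on opposite strands at -29 and -25. TGCCGC occurs in 11.6%, TATAAA in 13.6% and GGGGCCCC in 1.08% of the 32851 promoter windows of this length in the same table. Dlk1 and Rian held none of the motifs, and the number of CpG dinucleotides was 9 for Dlk1, 13 for the Meg3 window printed and 0 for Rian, against a median of 7 over all windows. GGGGCCCC was found in 1 member window, that of Peg3, at position -201. A match describes letters only, and methylation was not measured.

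Mirg, a noncoding RNA that carries a microRNA cluster, was at 10.4, 7.46 and 8.79 CPM in antibody libraries 5, 7 and 39 and at 5.75, 6.03 and 4.36 CPM in IgG libraries 14, 18 and 20. In edgeR the difference was 0.72 on the log2 scale (SE 0.21, adjusted p = 0.192). B830012L14Rik, between Rian and Mirg, was also higher without overlap, but its highest level was 0.45 CPM. Rtl1, the retrotransposon-derived gene on the opposite strand, overlapped between the groups at 0.28 to 0.95 CPM, and its reads cannot be told from those of the other strand where counting did not use strand. At the far end, Dio3, the thyroid hormone deiodinase gene, differed by -0.86 ± 0.48 log2 units (SE, edgeR adjusted p = 0.414) with overlap, and Dio3os had -1.19 ± 0.37 (SE, edgeR adjusted p = 0.201) with lower values in each antibody library. In all, 5 of the 9 tested genes from Dlk1 to Dio3 were higher and 1 lower without overlap, against 11.0% of all genes in each direction, with a median log2 fold change of 0.66. Those 9 include Dlk1, Meg3 and Rian themselves. The 5 higher genes all lie on the plus strand, and whether they vary independently of each other was not tested. Among 30 tested genes within 1 Mb on either side, 1 was higher (Mpc1-ps) and 2 were lower (Evl and Ppp2r5c) without overlap, and the median was 0.01. Genes of the domain other than the members were named after their values were seen, and none passed in edgeR.

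**Figure D2:**
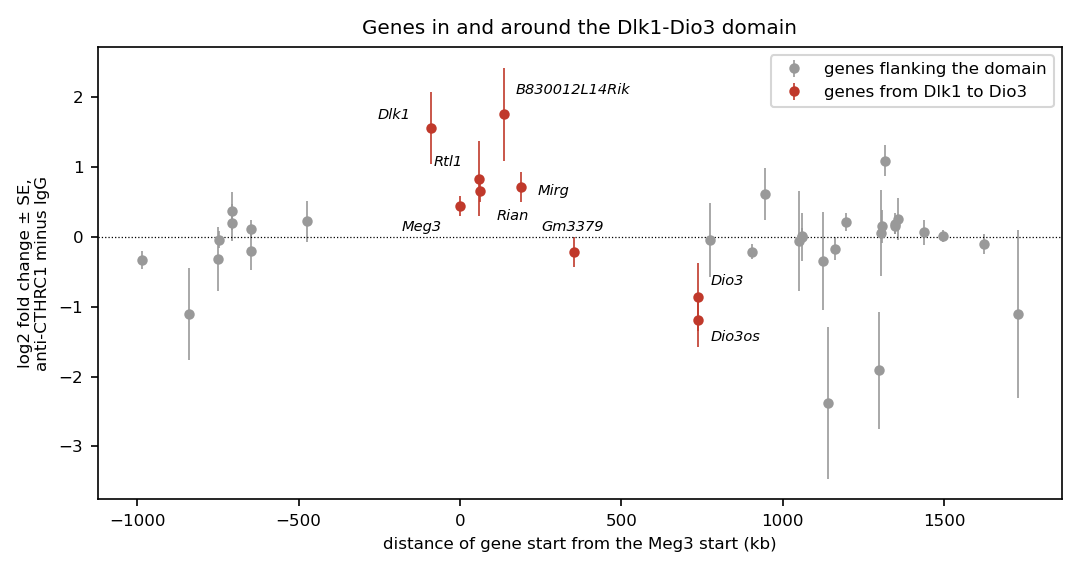
Log2 fold change between anti-CTHRC1 and IgG (points, with bars for the SE from edgeR) against the distance of each gene's start from the start of Meg3 in kb, for tested genes from Dlk1 to Dio3 (red) and within 1 Mb outside (grey). The 6 genes from Dlk1 to Mirg lie above 0, Gm3379, Dio3os and Dio3 lie below 0, and the flanking genes have a median of 0.01.

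Ratios between genes of the same domain were compared over libraries with an exact two-sided permutation test. This test cannot give a p below 0.1 for 3 against 3 and was adjusted over 3 ratios. The Meg3 to Rian ratio of FPKM was 1.48, 1.80 and 1.62 in antibody libraries 5, 7 and 39 and 1.56, 1.80 and 2.28 in IgG libraries 14, 18 and 20. The groups overlapped, and the log2 ratio differed by -0.19 (exact permutation p = 0.4, adjusted p = 0.5). The Dlk1 to Meg3 ratio was 0.060, 0.061 and 0.073 in the antibody libraries and 0.040, 0.011 and 0.038 in the IgG libraries. It did not overlap, with a log2 difference of 1.35 (exact permutation p = 0.1, the smallest possible, adjusted p = 0.3), and without IgG library 18 the difference was 0.73. The H19 to Igf2 ratio was 30.6, 14.9 and 24.8 against 40.2, 5.51 and 9.74, with overlap and a log2 difference of 0.80 (exact permutation p = 0.5, adjusted p = 0.5). Without IgG library 18 that difference was 0.18 and without IgG library 14 it was 1.61.

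**Figure D3:**
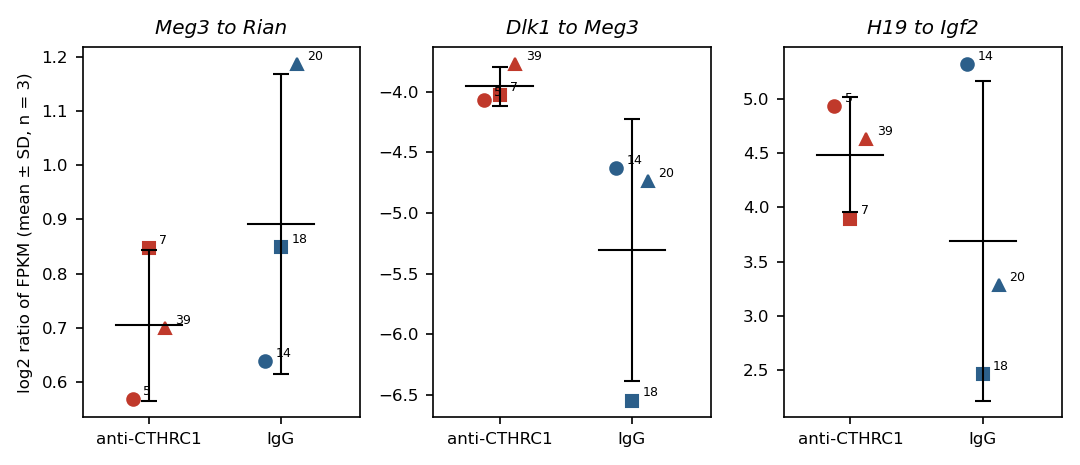
Log2 ratio of FPKM values in each library for Meg3 to Rian, Dlk1 to Meg3 and H19 to Igf2, with points numbered by library and a line and bar for the mean ± SD of 3 libraries. The Dlk1 to Meg3 ratio lies higher in all 3 antibody libraries, and the other 2 ratios overlap between groups.

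Cdkn1c (chromosome 7, 143458339 to 143461050, minus strand) encodes p57KIP2, an inhibitor of cyclin-dependent kinases that holds cells out of the cycle, and it was the 1 member that was lower after the antibody. Its level was 18.9, 19.1 and 19.97 CPM in antibody libraries 5, 7 and 39 and 25.2, 30.1 and 23.2 CPM in IgG libraries 14, 18 and 20. The antibody libraries lay within 1.06-fold of each other. The means were 19.3 ± 0.57 and 26.2 ± 3.58 CPM (SD, n = 3 each) and the log2 fold change was -0.44 ± 0.13 (SE, edgeR adjusted p = 0.190, with 0.0498 in DESeq2). In DESeq2 leaving out each library it passed without IgG library 20 (adjusted p = 0.0181) and in none of the other 5 cases. The summed level of 10 cell cycle genes was 110.7 to 147.5 CPM after the antibody and 217.9 to 307.7 CPM after IgG, without overlap. Of the 10 genes, 3 (Cdkn1a, Ccna2 and Ccnb1) did not overlap, where 22.0% of all genes tested did not. Cdkn1a encodes the inhibitor p21 and not a cyclin or replication factor. It was the largest part of the summed level, at 51.3 to 66.5 against 71.6 to 221.0 CPM. Without Cdkn1a, a choice made after the values were seen, the other 9 genes summed to 44.3 to 96.1 CPM against 79.8 to 207.6 CPM, and the groups overlapped. Mki67 was at 7.90 to 17.9 CPM against 17.1 to 40.1 CPM, which overlapped. The part of cycling cells in the level of Cdkn1c was not tested.

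Grb10 (chromosome 11, 11930508 to 12037401, minus strand) encodes an adaptor that binds the insulin and IGF1 receptors and dampens their signal. It was at 246.0, 190.8 and 208.4 CPM in antibody libraries 5, 7 and 39 and at 185.6, 127.9 and 181.0 CPM in IgG libraries 14, 18 and 20. Antibody library 7 and IgG library 14 nearly met, and in FPKM they crossed. The log2 fold change was 0.38 ± 0.18 (SE, edgeR adjusted p = 0.333) and was 0.23 without IgG library 18.

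H19, Plagl1 and Mest differed more between libraries of 1 group than between the groups. H19 (chromosome 7, 142575529 to 142578143, minus strand) is a maternally expressed long noncoding RNA of the Igf2 domain. It was at 298.3, 119.6 and 196.8 CPM in antibody libraries 5, 7 and 39, and at 196.3, 29.2 and 81.5 CPM in IgG libraries 14, 18 and 20. These levels spanned 10.2-fold over the 6 libraries and 6.73-fold within the IgG group. The log2 fold change was 1.002 ± 0.66 (SE, edgeR adjusted p = 0.489), and it was 1.89 without IgG library 14 (adjusted p = 0.162, edgeR), 0.56 without IgG library 18 and 0.63 without antibody library 5. Without IgG library 14, DESeq2 gave an adjusted p of 0.0492.

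Plagl1 (chromosome 10, 13060504 to 13130982, plus strand) was at 28.4, 18.1 and 21.4 CPM in antibody libraries 5, 7 and 39 and at 40.0, 8.34 and 10.1 CPM in IgG libraries 14, 18 and 20. IgG library 14 was above every antibody library and the other two IgG libraries were below every one. On the log2 scale the groups differed by 0.22 ± 0.59 (SE, edgeR adjusted p = 0.888). Without IgG library 14 it was 1.30 (adjusted p = 0.0703, edgeR, and 2.45e-05, DESeq2), and it was -0.14 without IgG library 18 and -0.04 without IgG library 20.

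Mest (chromosome 6, 30723547 to 30748462, plus strand), which encodes an alpha/beta hydrolase-fold protein linked to adipose tissue expansion in mice, took a like course. It was at 48.9, 22.9 and 30.4 CPM in antibody libraries 5, 7 and 39 and at 49.3, 15.0 and 13.0 CPM in IgG libraries 14, 18 and 20. The log2 fold change was 0.40 ± 0.55 (SE, edgeR adjusted p = 0.758), with 1.28 without IgG library 14 (adjusted p = 0.129, edgeR, and 0.00288, DESeq2) and 0.05 without antibody library 5. The end of Mest overlaps Copg2 on the opposite strand, and whether counting used strand is not given, so reads of the overlap are uncertain. Copg2 itself was at 29.6 to 38.3 CPM in the 6 libraries.

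**Figure D4:**
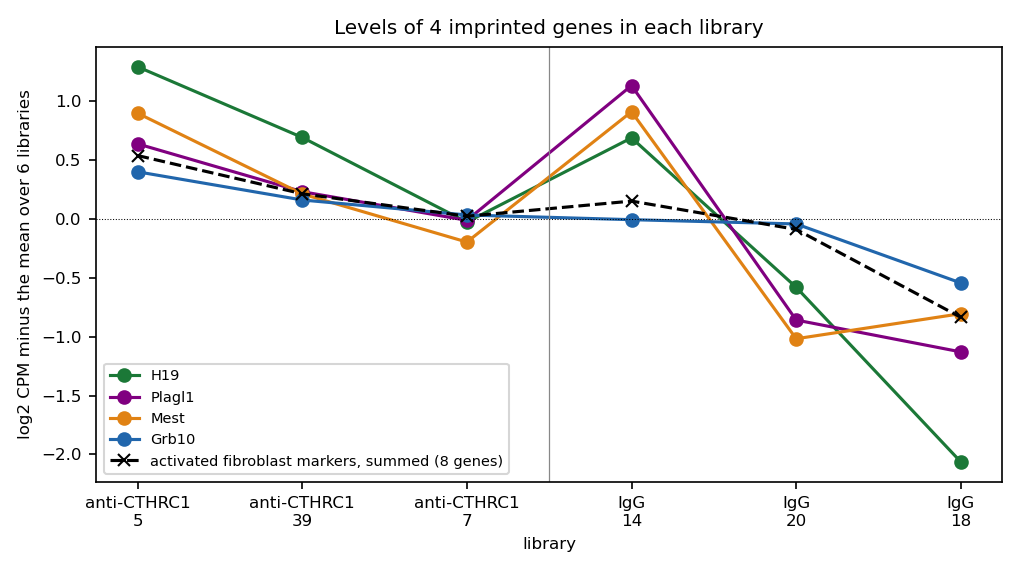
Log2 CPM of H19, Plagl1, Mest and Grb10, and of the sum of 8 activated fibroblast markers, each minus its own mean over the 6 libraries, by library with the antibody group on the left of the vertical line. Antibody library 5 and IgG library 14 are the 2 highest libraries for Plagl1 and Mest, and IgG libraries 18 and 20 are the 2 lowest for all 4 genes.

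The order of the libraries was nearly shared among H19, Plagl1 and Mest. From high to low it was antibody libraries 5 and 39, IgG library 14, antibody library 7 and IgG libraries 20 and 18 for H19. The summed level of 8 activated fibroblast markers, which include Postn and Cthrc1, ranked the 6 libraries in the same order as H19. It ran from 52805.1 CPM in antibody library 5 to 20385.0 CPM in IgG library 18. Col1a1 (7196.6 to 21709.2 CPM) and Col3a1 (8675.5 to 20599.5 CPM) were the largest parts of the sum and had this order. Postn and Cthrc1 did not, since IgG library 14 was below IgG library 20 and antibody library 7 in both. The sum of all 8 was 36949.8 to 52805.1 CPM after the antibody and 20385.0 to 40389.2 CPM after IgG. Of the 8 markers, 3 did not overlap, where 22.0% of all genes tested did not. Of the defining markers, Postn overlapped, at 1860.3 to 3434.6 CPM against 1003.9 to 2000.6 CPM. Cthrc1 did not overlap, at 260.4 to 273.3 CPM against 99.35 to 227.5 CPM. Skeletal and heart muscle markers summed to 223.6 to 651.2 CPM against 55.9 to 584.0 CPM, with IgG library 14 and antibody library 39 the highest, although 3 heart genes of the list did not overlap between the groups. The part of these cells in the levels of H19, Plagl1 and Mest was not tested.

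Peg3 (chromosome 7, 6703892 to 6730421, minus strand), a zinc finger gene expressed from the paternal chromosome, was at 42.3, 35.9 and 34.8 CPM in antibody libraries 5, 7 and 39 and at 27.1, 31.0 and 54.0 CPM in IgG libraries 14, 18 and 20. IgG libraries held both the highest and the lowest value. The log2 fold change was 0.01 ± 0.26 (SE, edgeR adjusted p = 0.987), and it was 0.42 without IgG library 20 and -0.18 without IgG library 14, so no direction can be given.

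**Figure D5:**
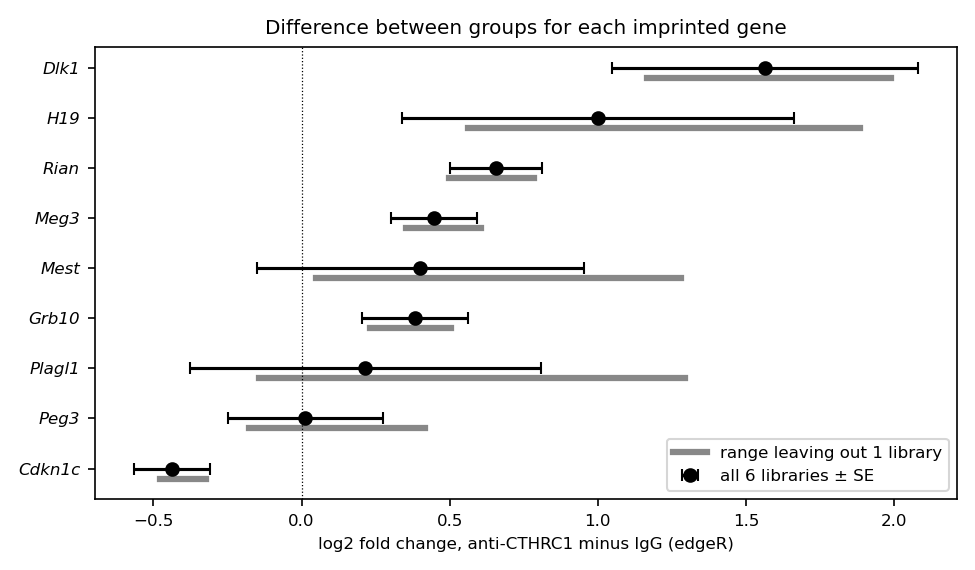
Log2 fold change between anti-CTHRC1 and IgG for each gene from edgeR (points, bars for the SE, all 6 libraries), with a grey bar for the range over fits that leave out 1 library. The ranges of Plagl1 and Peg3 cross 0, that of Cdkn1c lies below 0 and the other 6 lie above 0.

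Markers of some other cells differed between the groups in which Dlk1, Meg3, Rian, Grb10 and Cdkn1c did not overlap. Summed levels of smooth muscle, endothelial, brown adipocyte, T cell, mesothelial and neural markers overlapped. In that order, 0 of 8, 0 of 8, 0 of 7, 2 of 8, 1 of 8 and 2 of 7 tested genes did not overlap. Over all genes tested, 22.0% did not overlap, with 11.0% in each direction. Adventitial fibroblast markers summed to 3676.0 to 4514.3 CPM after the antibody and 2775.2 to 2803.5 CPM after IgG, with 5 of 8 not overlapping. Of its defining genes, Pi16 was at 1045.0 to 1142.6 against 322.0 to 708.9 CPM, and Pdgfra overlapped, at 98.8 to 145.6 against 129.4 to 147.3 CPM. Adipocyte markers summed to 3475.8 to 6276.1 CPM against 1791.5 to 3416.3 CPM, also with 5 of 8 not overlapping. Of its defining genes, Adipoq was at 442.4 to 762.0 against 131.4 to 358.4 CPM, and Lep at 27.4 to 45.1 against 4.24 to 8.28 CPM. Lep was the 1 adipocyte marker that passed in edgeR (adjusted p = 0.041). Macrophage markers were lower, at 754.9 to 1079.7 CPM against 1405.3 to 1902.7 CPM, with 6 of 8 not overlapping. Of its defining genes, Cd68 was at 20.1 to 26.1 against 35.75 to 75.4 CPM, and Adgre1 overlapped, at 28.0 to 38.2 against 34.4 to 89.5 CPM. Mpeg1 was the 1 macrophage marker that passed (adjusted p = 0.0156, edgeR), at 41.7 to 45.9 against 147.9 to 210.8 CPM. Among 10 skeletal and heart muscle markers, 3 were higher without overlap and 2 of them passed in edgeR. The atrial myosin light chain gene Myl7 was at 19.01 to 36.7 against 1.09 to 2.29 CPM (adjusted p = 0.0194, edgeR), Myl4 at 27.8 to 44.8 against 6.09 to 6.802 CPM (adjusted p = 0.0156, edgeR) and Nppa at 2.19 to 19.2 against 0.10 to 0.47 CPM (adjusted p = 0.0905, edgeR). Other heart genes of the list overlapped and were highest in IgG library 14. These were Myh6, at 88.8 to 188.9 against 8.265 to 288.8 CPM, and Tnnt2, at 38.1 to 86.7 against 10.6 to 107.5 CPM. The defining muscle genes Acta1 and Ckm overlapped, at 10.4 to 88.6 against 8.30 to 55.9 CPM and 11.0 to 56.3 against 5.39 to 51.4 CPM. Of the defining genes, Acta1, Ckm, Pdgfra, Pi16, Adipoq, Lep, Adgre1 and Cd68, none was at 0 in any library. With 3 libraries a group, these markers and the antibody cannot be told apart, and their part in the levels of the imprinted genes was not tested.

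Some members carry microRNAs within their transcripts, and their mature sequences are shown because H19, Mest and Meg3 are known for them as hosts. The sequences are from RefSeq on GRCm38.p6, 5′ to 3′, with the seed (bases 2 to 8) in capitals.
miR-675-5p, in H19, chr7:142577112-142577133: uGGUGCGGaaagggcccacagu
miR-675-3p, in H19, chr7:142577078-142577099: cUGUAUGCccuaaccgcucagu
miR-335-5p, in Mest, chr6:30741314-30741336: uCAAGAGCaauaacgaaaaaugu
miR-335-3p, in Mest, chr6:30741354-30741375: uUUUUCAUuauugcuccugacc
miR-770-5p, in Meg3, chr12:109563710-109563731: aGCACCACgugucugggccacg
miR-370-3p, in Rian, chr12:109618305-109618326: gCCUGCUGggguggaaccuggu
The hairpin of miR-675 lies in an exon in 3 of the 4 annotated H19 transcripts that span it, and that of miR-335 lies in introns of all 7 Mest transcripts that span it. Across the 12 mature miRNAs within members no seed was shared. Mature microRNAs were not measured separately here. The rows of small RNAs inside the members held at most 6 counts in any library (Mir675), with 18 such rows inside Rian at 5 counts or fewer. The levels above are those of the host gene rows and do not give the levels of the mature microRNAs.

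Of 30 other imprinted growth genes listed from textbook knowledge, 27 were tested and none passed in edgeR, with 10 at an unadjusted p under 0.05 (17.1% of all genes) and 6 past the threshold in DESeq2 (8.84% of all genes). In limma-voom 0 passed. Without overlap, 6 were higher and 5 lower, where 11.0% of all genes were so in each direction. The median log2 fold change was 0.18 against -0.02 over all genes. Expression from each parental copy was not measured, so whether each listed gene is imprinted in this tissue is not known here. Igf2, the fetal insulin-like growth factor, was at 22.7, 18.7 and 18.4 CPM in antibody libraries 5, 7 and 39 and at 11.4, 12.3 and 19.5 CPM in IgG libraries 14, 18 and 20. Its log2 fold change was 0.47 ± 0.23 (SE, edgeR adjusted p = 0.344). The lowest value without 1 library was 0.33, without IgG library 14 (adjusted p = 0.484, edgeR). The highest was 0.79, without IgG library 20 (adjusted p = 0.0786, edgeR, and 0.00169, DESeq2). Igf2r, the maternally expressed receptor that clears IGF2, was at 135 ± 12.2 and 131 ± 19.1 CPM in the antibody and IgG groups, and its groups differed by 0.04 ± 0.14 (SE, edgeR adjusted p = 0.910).

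Among the rest of that list at 10 CPM or more, higher values without overlap were found for Dcn (decorin), at 2540.8 ± 307.3 against 1830.2 ± 240.6 CPM, Gnas (stimulatory G protein alpha subunit), at 1196.6 ± 168.0 against 944.2 ± 17.1 CPM, Ndn (necdin), at 36.1 ± 1.68 against 25.4 ± 7.14 CPM, and Snrpn, at 20.9 ± 2.27 against 16.7 ± 2.79 CPM (mean ± SD, n = 3 each). Their log2 fold changes were 0.47, 0.34, 0.51 and 0.33 (Snrpn, 0.20 without IgG library 18), and Dcn passed in DESeq2 (adjusted p = 0.0337). Ndn passed in edgeR without IgG library 14 (0.76, adjusted p = 0.0395), and its lowest value without 1 library was 0.41, without IgG library 18. Sgce, Copg2, Impact and Peg13 overlapped, with log2 fold changes from -0.06 to 0.09. Chosen after their values were seen, Gatm, the creatine synthesis enzyme, was at 5.65 ± 1.08 against 12.5 ± 4.27 CPM (log2 fold change -1.14, adjusted p = 0.159, edgeR, and 0.00698, DESeq2), and Nnat, which encodes neuronatin, was at 29.4 CPM in antibody library 5 and 1.74 to 4.52 CPM in the other 5 libraries. Without antibody library 5 the log2 fold change of Nnat was 0.53 in place of 2.13. Gatm did not overlap between the groups. Of the 6 listed genes past the threshold in DESeq2, Dcn, Mirg, Airn and Nnat were higher, and Gatm and Asb4 were lower.

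Profiles most like each member were sought among 11026 other genes of at least 5 CPM, by the root mean square difference between centred log2 CPM values over the 6 libraries, with smaller values for closer profiles. The closest to Rian were Ptgfrn (0.033), Ephb2 (0.053) and Dpt (0.068), the last of these on the adventitial fibroblast list. For Meg3 they were Nostrin (0.053), Atp11a (0.059) and Phldb1 (0.061), and for Dlk1 they were Zfhx4 (0.082), Aspn (0.173) and Exoc3l2 (0.178). H19 had more distant neighbours, Lgr5 (0.255), Adamts17 (0.400) and Dbp (0.404). Plagl1 and Mest shared Col11a1, a fibrillar collagen gene, among their closest (0.254 and 0.231), with Saa3 (0.225) and Chl1 (0.258) beside Plagl1, and Col8a2 (0.226) and Acan (0.237) beside Mest. Cdkn1c was closest to Apaf1 (0.029), Map3k14 (0.054) and Actg1 (0.058), Grb10 to Farp2 (0.055), Abhd14a (0.056) and Ndrg4 (0.059), and Peg3 to Trit1 (0.090), Synm (0.093) and Zfp970 (0.097). Between members, the closest pairs were Meg3 with Rian (0.201) and Plagl1 with Mest (0.210). Grb10, on chromosome 11, was nearly as close to Meg3 (0.2115) and to Rian (0.227). With 6 libraries and this many genes such closeness is a description only.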

How the data were processed

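Per the file headers, the authors deposited counts of reads, as whole numbers, and FPKM values, scaled by gene length and library, for each gene and library. HISAT2, StringTie, DESeq2 and GRCm38 are named in the submitters' processing notes. Versions, annotation release, counting mode and use of strand are not given in the sources used here. Coordinates are those of the deposited table, and all 9 members matched GENCODE M21 by ID.

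All genes were fitted together, without covariates, by edgeR 4.0.16 under R 4.3.3, with filterByExpr, TMM, robust dispersion and the two-sided quasi-likelihood F-test. P-values were adjusted by Benjamini-Hochberg over 19241 genes at a threshold of 0.05, and the SE is the log2 fold change over the square root of F. In simulated data the fit recovered 46% of 2-fold and 87% of 4-fold changes, with 7 false calls, so many 2-fold changes can be missed. CPM values are TMM-scaled, with 0.5 added for log2 profiles. Alternatives were DESeq2 1.42.0 (its size factors and its Wald test), limma 3.58.1 (voom, and log2(FPKM + 1) at a mean FPKM of 1), no filter, a mean of 5 CPM, libraries scaled after removing mitochondrial and haemoglobin genes, a threshold of 0.10, and leaving out libraries. DESeq2 without each library was added after seeing the data. Ratios used exact permutation. Named genes were the members, listed imprinted genes of 10 CPM or more with Igf2 and Igf2r, and the 3 closest profiles. Members and lists were chosen with earlier results of these data known.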

Additional observations from a re-analysis of the deposited data

How the results depend on the processing

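Over all genes edgeR called 61, against 1700 by the DESeq2 Wald test, 95 with no filter, 98 at a mean of 5 CPM, 234 at a threshold of 0.10, and 0 without antibody library 39 and IgG library 14 together. Leaving out 1 library gave 0 (antibody library 7, antibody library 39 or IgG library 18) to 227 in edgeR and 723 to 2507 in DESeq2. Members past the threshold numbered 0 under all edgeR and limma alternatives, 3 in DESeq2, and 1 to 5 in DESeq2 without 1 library. Other imprinted genes numbered 0 in edgeR, 6 in DESeq2, 0 to 1 in edgeR without 1 library (1 without IgG library 14), and 1 to 4 in DESeq2 without 1 library. Peg3 and Plagl1 changed sign. Without 1 library Peg3 ran from -0.18 to 0.42 and Plagl1 from -0.15 to 1.30, and Peg3 was -0.12 without antibody library 39 and IgG library 14. Igf2r was -0.015 in limma on log2(FPKM + 1). Without 1 library, Igf2r ran from -0.078 to 0.147, Peg13 from -0.14 to 0.035, Impact from -0.197 to 0.084 and Copg2 from -0.021 to 0.197. The other 7 members kept their direction under the alternatives run on them, which for Dlk1 leave out a mean of 5 CPM and limma on log2(FPKM + 1), where it was filtered out. The causes were not tested. No paired analysis was possible because the groups share no replicate numbers. Depth limits Dlk1, at 32 counts in IgG library 18.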
